A study of Homo sapiens with 6 samples.

Results

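The minichromosome maintenance (MCM) genes were followed through CDK11 knockdown in the osteosarcoma cell lines KHOS and U-2OS. Every probe set that the platform annotation assigns to MCM2, MCM3, MCM4, MCM5, MCM6, MCM7, MCM8 or MCM10 was taken, which gave 18 of the 54675 probe sets of the Affymetrix U133 Plus 2.0 array. Each line was measured with CDK11 siRNA at 40 nM, with nonspecific siRNA at 40 nM and untransfected. Each of these 6 conditions had 1 array, and RNA of 3 flasks was pooled for it, so that the spread between flasks was averaged away and no array had a replicate within its line. RNA was taken 48 hours after transfection. Values are log2 signals made with gcrma, and a difference of 1 is a doubling. KHOS and U-2OS are established lines from human bone tumours, and CDK11 is a cyclin-dependent kinase that acts with L-type cyclins in transcription and pre-mRNA splicing. The 8 genes, of 19775 that the platform names on single-gene probe sets, lie on 8 chromosomes of GRCh38.p14. MCM6 lies on chromosome 2, MCM2 on chromosome 3, MCM3 on chromosome 6, MCM7 on chromosome 7, MCM4 on chromosome 8, MCM10 on chromosome 10, MCM8 on chromosome 20 and MCM5 on chromosome 22. No array of normal bone cells was analysed here.

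MCM2 to MCM7 form the ring at the core of the helicase that unwinds DNA at the replication fork. In G1 the origin recognition complex, CDC6 and CDT1 load this ring onto origins in an inactive form, which is called licensing, and in S phase the kinase CDC7 and the factors CDC45 and GINS turn it into the active helicase. MCM10 is not a ring subunit and helps in that last step, and MCM8 works with MCM9 in recombination repair. Many of these genes are transcribed under E2F factors as cells enter the cycle, and their proteins are used in tumour pathology as markers of cycling cells.

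Promoter windows of 300 bases, from 250 before to 50 after the start of transcription, were taken from RefSeq for the 6 members found in that table, all but MCM4 and MCM5. They were searched on both strands for the E2F motif TTTNNCGC. For MCM7 the table gives 3 starts, of which the outermost was used, and the windows of the other 2 held no match. A match was found for MCM2, MCM3, MCM6, MCM7 and MCM8, and none in that of MCM10. Of all 35116 promoter windows of this length, 6.89% held a match. The windows of 4 ring subunits are printed here from 190 bases before the start to 20 after it, because they set MCM3, which stood apart in the expression data, beside MCM2, MCM6 and MCM7. The letters are those of the gene's own strand, and capitals mark the motif on either strand. Where the motif reads on both strands in overlap, as in MCM2 and at both places in MCM6, the capitals run on.
MCM3 at chr6:52284723-52284932 of GRCh38.p14, minus strand: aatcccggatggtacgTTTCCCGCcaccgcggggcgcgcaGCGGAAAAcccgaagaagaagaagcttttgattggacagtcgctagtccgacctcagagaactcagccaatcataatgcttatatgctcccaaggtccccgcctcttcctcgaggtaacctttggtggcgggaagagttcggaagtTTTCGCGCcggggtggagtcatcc
MCM2 at chr3:127598221-127598430 of GRCh38.p14, plus strand: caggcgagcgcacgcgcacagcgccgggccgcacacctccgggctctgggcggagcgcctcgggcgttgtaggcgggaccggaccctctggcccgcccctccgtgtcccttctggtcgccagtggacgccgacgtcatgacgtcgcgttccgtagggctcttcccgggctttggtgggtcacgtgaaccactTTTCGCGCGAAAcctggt
MCM6 at chr2:135876424-135876633 of GRCh38.p14, minus strand: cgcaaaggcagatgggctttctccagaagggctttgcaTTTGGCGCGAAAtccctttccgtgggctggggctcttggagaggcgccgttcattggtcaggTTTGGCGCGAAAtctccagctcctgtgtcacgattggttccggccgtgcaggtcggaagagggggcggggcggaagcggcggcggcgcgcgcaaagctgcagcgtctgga
MCM7 at chr7:100101378-100101587 of GRCh38.p14, minus strand: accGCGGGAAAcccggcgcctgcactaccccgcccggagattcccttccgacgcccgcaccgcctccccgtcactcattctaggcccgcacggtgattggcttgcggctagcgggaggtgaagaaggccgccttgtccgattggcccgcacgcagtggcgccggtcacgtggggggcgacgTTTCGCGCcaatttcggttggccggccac
The window of MCM3 held 3 matches, of which the last spans the start of transcription, and that of MCM7 held 2. The windows of MCM2 and MCM6 held their matches as overlapping pairs, 1 pair in MCM2 and 2 in MCM6. A match is a description of the letters and not of a bound factor. MCM3 could not be told from the other 3 subunits by the presence of the motif.

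Probe sets were kept if at least 1 of the 6 arrays read over 6.64, the log2 of a signal of 100, which 16397 of them did. Array medians lay between 2.92 and 2.98. Of the 18 probe sets, 15 were kept and each of the 8 genes had at least 1. The probe set with the lowest maximum among those kept was 201755_at of MCM5, at 6.05 to 6.84. It was over the limit only on the untransfected U-2OS array, so its differences between the siRNAs compare values below the limit. The nearest one left out was 238977_at of MCM6. It read 4.65 with CDK11 siRNA, 5.13 with nonspecific siRNA and 6.23 untransfected in KHOS, and 4.31, 3.70 and 4.44 in the same order in U-2OS. The other 2 left out were 233560_x_at of MCM8, at 3.26 to 4.29, and 242479_s_at of MCM4, at 1.98 to 2.02, so these read background or little above it on all arrays. The kept probe sets of 1 gene read the same RNA and are not independent of each other. The knockdown was visible in the target. All 5 probe sets assigned to CDK11A and CDK11B were lower with CDK11 siRNA in both lines, but only 2 passed the signal limit. The brightest was left at 20.6% of its signal with nonspecific siRNA in KHOS and 16.0% in U-2OS. Those below the limit on every array were left at 27.0% to 40.1% in KHOS and 22.4% to 86.6% in U-2OS. Markers of blood and endothelial cells lay below the limit on every array. Of the osteoblast lineage, 3 of the 5 genes on the array were kept, COL1A1, SPARC and RUNX2, while ALPL and SPP1 lay below the limit on every array. On its kept probe set RUNX2 read 9.51 to 10.24 in KHOS and 4.39 to 7.03 in U-2OS, so that it was below the limit on some U-2OS arrays. Of 4 epithelial markers, CDH1, KRT5 and KRT14 read background on all arrays, and EPCAM read 8.81 or more in KHOS but 5.15 to 5.89 in U-2OS.

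**Figure D1:**
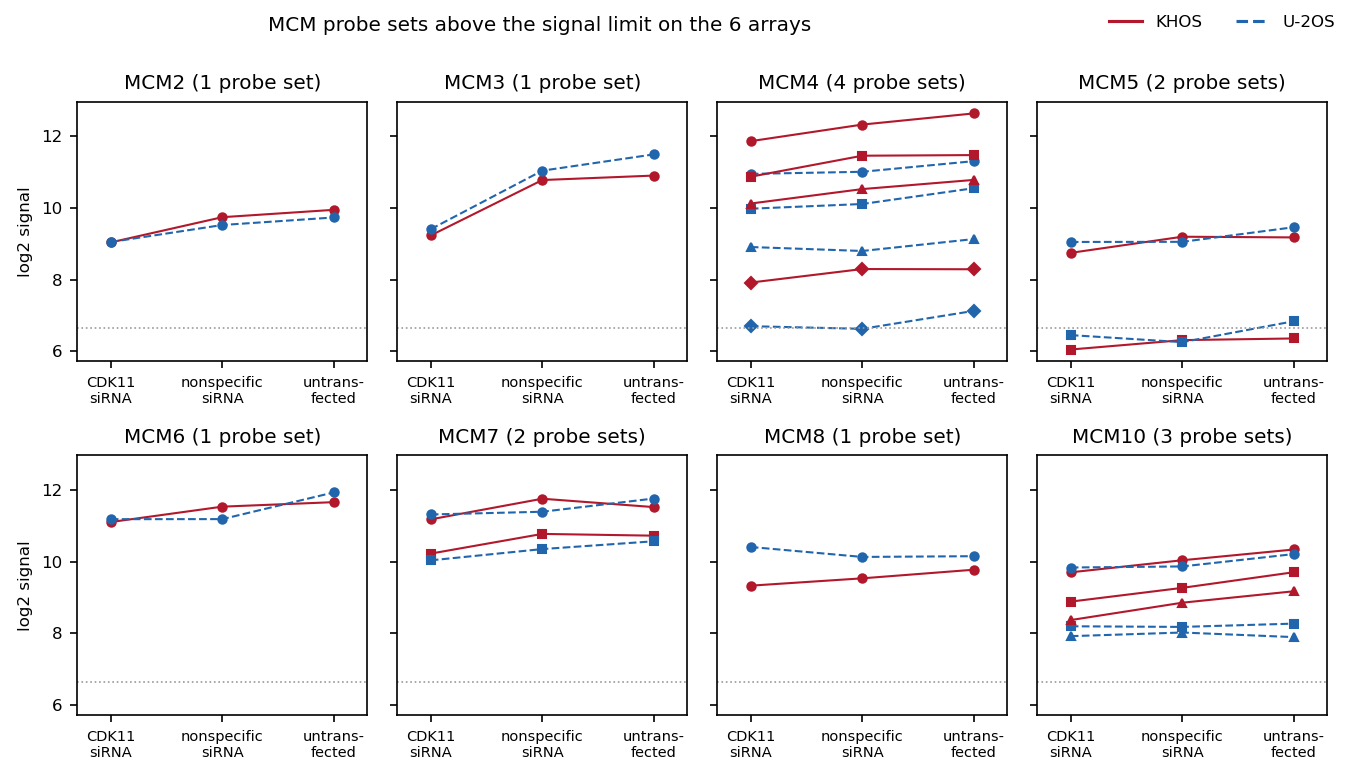
Level of each kept MCM probe set (log2 signal, vertical axis) by transfection, with KHOS as solid and U-2OS as dashed lines, 1 array per point; where a gene has several probe sets, circle, square, triangle and diamond run from the brightest to the dimmest, and the dotted line is the signal limit of 6.64. MCM3 is more than 1 lower at CDK11 siRNA in both lines, whereas the other genes move by less than 1.

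MCM3 was the member with the lowest CDK11 siRNA level relative to its controls in both lines. This subunit carries the tail through which, in yeast, the ring first meets the origin recognition complex. In KHOS it read 9.23 with CDK11 siRNA, 10.78 with nonspecific siRNA and 10.91 untransfected. In U-2OS the same probe set, 201555_at, read 9.41, 11.04 and 11.50. It is the only probe set of MCM3 on the array, so no other could check its values. Both CDK11 siRNA arrays lay below all 4 control arrays, by more than 1 log2 unit. The signal left, relative to nonspecific siRNA, was 34.2% for KHOS and 32.2% for U-2OS. Relative to untransfected cells, 31.4% was left in KHOS and 23.5% in U-2OS. On the scale of all kept probe sets, where 1 SD of the difference was 0.449 for KHOS and 0.365 for U-2OS, MCM3 lay at a z-score of -3.45 in KHOS and -4.53 in U-2OS. It was the only member beyond 3 SD, against 0.732% of all kept probe sets that lay beyond it on the lower side in KHOS and 0.890% in U-2OS.

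MCM2 came next. It is the subunit that binds histones, and with MCM5 it forms the gate through which the ring opens. It read 9.04 with CDK11 siRNA, 9.74 with nonspecific siRNA and 9.95 untransfected in KHOS. In U-2OS it read 9.05, 9.52 and 9.73. The CDK11 siRNA arrays were again the lowest in both lines, and 61.4% of the nonspecific siRNA signal was left in KHOS and 71.9% in U-2OS. These differences, -0.70 and -0.48, lay at z-scores of -1.57 and -1.36, well inside the range of other genes. MCM2 and MCM3 were the only members more than 1 SD lower in U-2OS, 2 of 15 probe sets against 10.5% of all kept probe sets, while 8 of 15 were in KHOS, against 12.2%.

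Between CDK11 siRNA and nonspecific siRNA, the other ring subunits were lower in KHOS and moved less in U-2OS. MCM6, which with MCM4 and MCM7 makes up the part of the ring that unwinds DNA by itself in vitro, read 11.11 with CDK11 siRNA, 11.54 with nonspecific siRNA and 11.66 untransfected in KHOS. In U-2OS it read 11.19 with either siRNA and 11.94 untransfected. The U-2OS siRNA arrays were thus level with each other and below the untransfected array. MCM7 read 11.18, 11.76 and 11.53 on its brighter probe set in KHOS, with CDK11 siRNA, nonspecific siRNA and untransfected, and 11.32, 11.40 and 11.76 in U-2OS. Its other probe set, 210983_s_at, differed between CDK11 siRNA and nonspecific siRNA by -0.55 in KHOS and -0.32 in U-2OS. MCM7 was the ring subunit after MCM3 and MCM2 with the next lowest value in U-2OS, though its brighter probe set gave only -0.08 there. The 4 kept probe sets of MCM4, whose tail is a substrate of CDC7, differed by -0.59 to -0.38 in KHOS and by -0.13 to 0.11 in U-2OS. MCM5, the partner of MCM2 at the gate, read 8.75 with CDK11 siRNA, 9.20 with nonspecific siRNA and 9.18 untransfected in KHOS on 216237_s_at. In U-2OS it read 9.05, 9.05 and 9.46. On this probe set the U-2OS level of MCM5 was the same with either siRNA, as for MCM6. The dimmer MCM5 probe set, 201755_at, differed between CDK11 siRNA and nonspecific siRNA by -0.26 in KHOS and 0.20 in U-2OS.

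Outside the ring, MCM10 lay among the ring subunits other than MCM3. Its 3 probe sets differed by -0.48 to -0.34 in KHOS and by -0.10 to 0.02 in U-2OS between CDK11 siRNA and nonspecific siRNA. The brightest of them, 220651_s_at, read 9.70, 10.04 and 10.34 in KHOS with CDK11 siRNA, with nonspecific siRNA and untransfected, and 9.84, 9.87 and 10.21 in U-2OS. MCM8 was the member with the smallest difference in KHOS and was higher in U-2OS. It read 9.33 with CDK11 siRNA, 9.53 with nonspecific siRNA and 9.78 untransfected in KHOS. In U-2OS it read 10.41, 10.13 and 10.15, and the CDK11 siRNA array was the highest of that line.

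**Figure D2:**
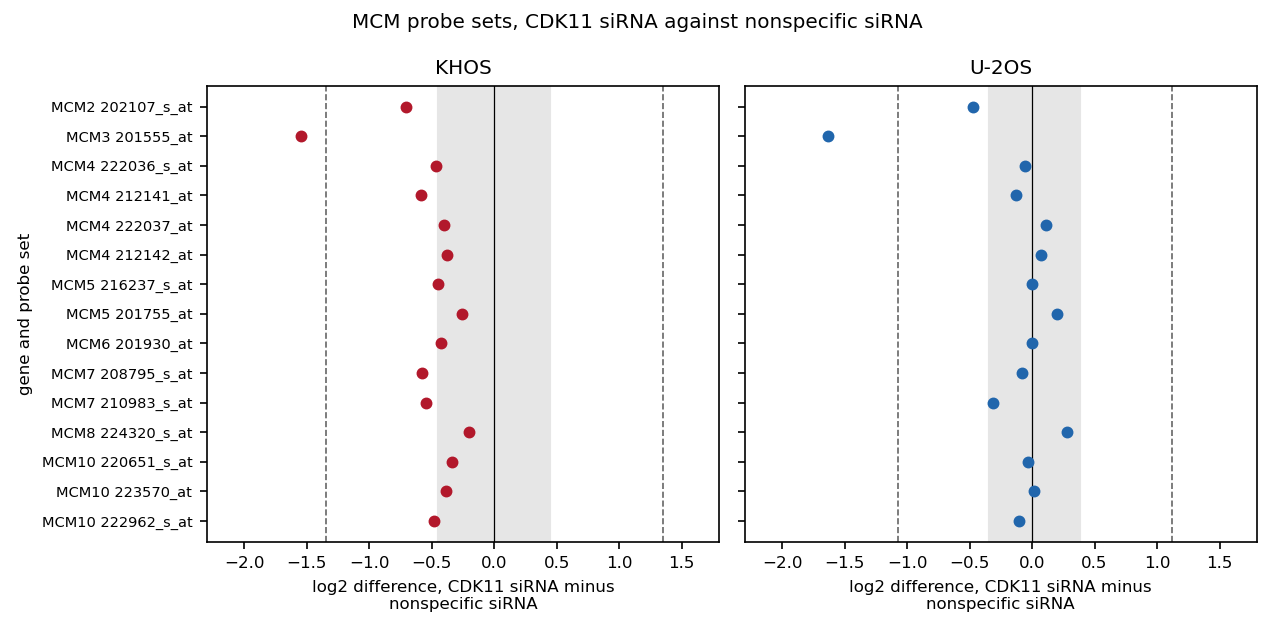
Log2 difference of CDK11 siRNA minus nonspecific siRNA for each of the 15 kept MCM probe sets in KHOS and in U-2OS; the grey band is 1 SD and the dashed lines 3 SD of that difference over all 16397 kept probe sets. Only MCM3 passes 3 SD, and the remaining probe sets lie from -0.70 to -0.20 in KHOS and from -0.48 to 0.28 in U-2OS.

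With CDK11 siRNA all 15 probe sets were below their nonspecific siRNA level in KHOS, where 48.1% of all kept probe sets were lower, and 10 of 15 in U-2OS, where 47.3% were. The median of the 15 differences came to -0.45 in KHOS, against 0.01 over all kept probe sets, and to -0.03 in U-2OS, against 0.01. Without MCM3 the median shifted only to -0.44 in KHOS, with -0.02 in U-2OS. At these medians without MCM3, 73.7% of the nonspecific siRNA signal was left in KHOS, and 98.8% in U-2OS. MCM3 was 0.843 below the next member in KHOS and 1.16 below it in U-2OS. In both lines together, 10 of 15 were lower, against 30.0% of all kept probe sets. The KHOS difference was the lower of the pair for 14 of 15 probe sets, against 51.5% of all, and MCM3 was the exception. The median gap between the lines, KHOS minus U-2OS, was -0.43 for the members and -0.01 for all kept probe sets. Against untransfected cells the KHOS difference was the lower for only 9 of 15, against 47.9% of all, with a median gap of -0.03. The gap thus depended on the control. Without replicates within a line, it was not tested.

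The members fell into nearly the same order in both lines. MCM3 was the lowest and MCM2 the next, and MCM8 was the highest with 201755_at of MCM5 after it. Across the 15 probe sets, the differences in KHOS and U-2OS had a Pearson r of 0.98 and a Spearman rho of 0.92, and across the 14 without MCM3 an r of 0.91 and a rho of 0.90. Over all 16397 kept probe sets r was 0.45. These are descriptions over probe sets that share 4 arrays, and several share a gene. The likeness did not carry over to the other control. Against untransfected cells, r without MCM3 was -0.06, and for nonspecific siRNA against untransfected cells it was -0.49.

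The distance between MCM3, on its only probe set, and the rest of its own ring was large in both lines. With the brightest probe set of each subunit, the difference of MCM3 minus that of MCM2, MCM4, MCM5, MCM6 or MCM7 was -1.12 to -0.84 in KHOS and -1.63 to -1.16 in U-2OS between CDK11 siRNA and nonspecific siRNA. Against untransfected cells it was -1.33 to -0.76 in KHOS and -1.73 to -1.34 in U-2OS. Nonspecific siRNA against untransfected cells gave -0.36 to 0.19 in KHOS and -0.24 to 0.29 in U-2OS, with both signs in each line. An exact two-sided permutation test of the MCM3 signal relative to the mean of the other 5, on 2 CDK11 siRNA arrays against 2 nonspecific siRNA arrays, gave p = 0.333, which is the smallest that so few arrays allow.

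The 2 controls differed, and this touches the U-2OS result. Against untransfected cells, 13 of 15 probe sets were lower with CDK11 siRNA in both lines, where 32.5% of all kept probe sets were. The medians were then -0.60 in KHOS and -0.41 in U-2OS, against -0.45 and -0.03 with nonspecific siRNA as the control. Nonspecific siRNA itself lay below untransfected cells, with a median of -0.13 for KHOS and -0.35 for U-2OS. It was lower for 11 of 15 probe sets in KHOS and 14 of 15 in U-2OS, and for 10 in both, against 30.4% of all. The largest of these was -0.75 for MCM6 in U-2OS, as large as its whole difference between CDK11 siRNA and untransfected cells. For MCM3 nonspecific siRNA gave -0.12 in KHOS and -0.46 in U-2OS, where CDK11 siRNA gave -1.67 and -2.09 against the same cells. The 2 comparisons with CDK11 siRNA share those arrays, and a change at transfection cannot be told apart here from a difference of 1 untransfected flask pool.

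**Figure D3:**
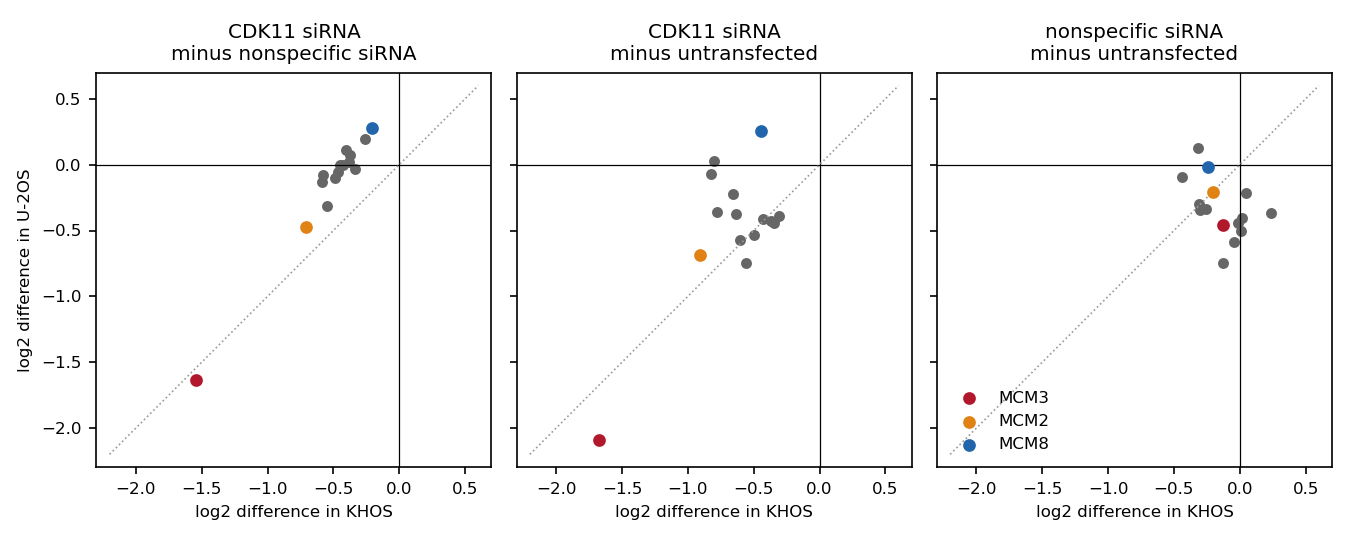
Each point is 1 kept MCM probe set, with its log2 difference in KHOS on the horizontal axis and in U-2OS on the vertical axis, for CDK11 siRNA minus nonspecific siRNA, CDK11 siRNA minus untransfected, and nonspecific siRNA minus untransfected; the dotted line marks equal differences. MCM3 (red) is at -1.55 and -1.63 in the first panel and at -0.12 and -0.46 in the last.

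With the lines as replicates, limma was fitted to all kept probe sets with the line as a block and 2 residual degrees of freedom. Between CDK11 siRNA and nonspecific siRNA it called 0% of the probe sets at an adjusted p of 0.05, although 2337 had an unadjusted p under 0.05, and no member was called. MCM3 differed by -1.59 (SE 0.153, 2 arrays each), the 24th lowest difference of the 16397, with a limma p of 1.87e-04 and an adjusted p of 0.146. It ranked 12th by p, and this adjusted value was tied with those of the probe sets before it. MCM2 differed by -0.59 (SE 0.129, limma adjusted p = 0.219) and 210983_s_at of MCM7 by -0.43 (SE 0.132, limma adjusted p = 0.283). These were the 3 members with an unadjusted p under 0.05. MCM8 differed by 0.04 (SE 0.201, limma adjusted p = 0.960). When the variance prior was let to follow the signal level, 211 probe sets were called by limma, 70 higher and 141 lower, and MCM3 was among them with an adjusted p of 0.00622. The call on MCM3 thus depended on the prior, which does not enter the estimate.

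Against untransfected cells, limma called 0% of the probe sets as well, with 3162 at an unadjusted p under 0.05, among them 7 of the members. MCM3 differed by -1.88 (limma adjusted p = 0.10) and MCM2 by -0.80 (limma adjusted p = 0.115). With the level-dependent prior 574 probe sets were called, including MCM3 with an adjusted p of 0.00414 and MCM2 with 0.0251. Between nonspecific siRNA and untransfected cells limma called 0%, with 1468 at an unadjusted p under 0.05 and no member among them, and 5 with the level-dependent prior. The smallest adjusted p of a member was 0.574.

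The levels of some members differed between the lines whatever the transfection. Limma with transfection as a block called 72.1% of all kept probe sets between KHOS and U-2OS, 6486 higher and 5343 lower in KHOS, and 7 of the 15 member probe sets. A member called here is therefore no exception among genes. All 4 kept probe sets of MCM4 were higher in KHOS, by 1.06 to 1.53 with adjusted p of 0.000637 to 0.0018 in limma (3 arrays per line). On the brightest, KHOS read 11.87 with CDK11 siRNA, 12.33 with nonspecific siRNA and 12.64 untransfected, and U-2OS read 10.95, 11.01 and 11.31. The lines did not overlap, but how many of all kept probe sets had no overlap was not counted. Of MCM10, 223570_at was higher in KHOS by 1.07 (SE 0.168, limma adjusted p = 0.00376) and 222962_s_at by 0.85 (SE 0.182, limma adjusted p = 0.0106), a call that was lost with no filter on low signals (limma adjusted p = 0.0748). The brightest MCM10 probe set differed by only 0.06 (limma adjusted p = 0.678). The probe sets of MCM10 thus disagreed on the size of this difference, and on 223570_at KHOS minus U-2OS was 0.69 with CDK11 siRNA, 1.09 with nonspecific siRNA and 1.44 untransfected.

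MCM8 was the only member called lower in KHOS, by -0.69 (SE 0.164, limma adjusted p = 0.0158). The KHOS arrays read 9.33 to 9.78 and the U-2OS arrays 10.13 to 10.41, with no overlap, which was again not counted over all kept probe sets. The MCM8 call was lost without the nonspecific siRNA arrays (limma adjusted p = 0.0519) and with no filter on low signals (limma adjusted p = 0.0891). KHOS minus U-2OS for MCM8 was -1.08 with CDK11 siRNA, -0.60 with nonspecific siRNA and -0.38 untransfected. MCM3 was lower in KHOS at each transfection, by -0.34 on average (SE 0.125, limma adjusted p = 0.0578), and passed the threshold with the level-dependent prior and with the arrays centred on their median or on housekeeping genes (limma adjusted p of 0.0174 to 0.0224). The remaining ring subunits, MCM2, MCM5, MCM6 and MCM7, were not called. MCM2 differed by 0.14 (limma adjusted p = 0.281), MCM6 by -0.0014 and the brighter MCM7 probe set by -0.0039, and the sign of these values moved with the transfection. The other MCM7 probe set, 210983_s_at, was higher in KHOS by 0.26 (limma adjusted p = 0.0866) and passed the threshold only with the level-dependent prior (limma adjusted p = 0.0432). MCM5 differed by -0.15 (limma adjusted p = 0.356) on 216237_s_at and by -0.28 (limma adjusted p = 0.143) on 201755_at, which passed only with the arrays centred on their median (limma adjusted p = 0.0396). With 1 probe set per gene limma called 2 of the 8 genes between the lines, MCM4 and MCM8, against 71.7% of all genes. In all, KHOS was the higher line for 13 of 15 probe sets with nonspecific siRNA, but for 7 with CDK11 siRNA and 9 untransfected. How many of all kept probe sets were higher in KHOS at each transfection was not counted. Their median limma difference between the lines was 0.0985, so these member counts have no reference share.

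**Figure D4:**
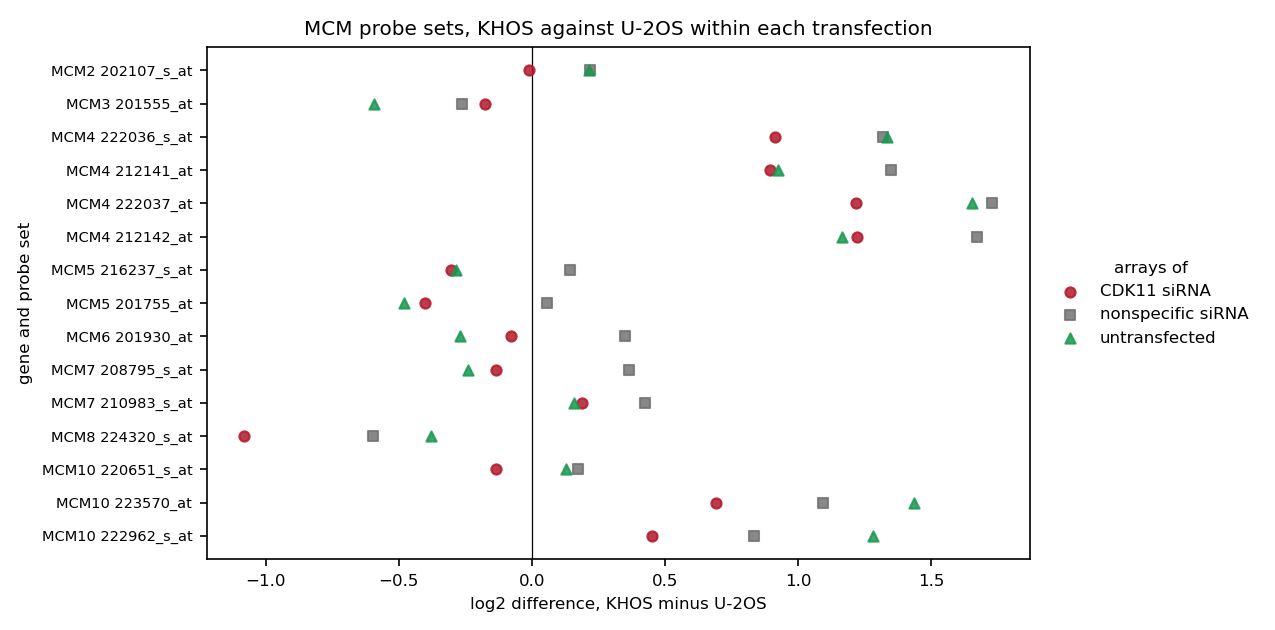
Level in KHOS minus level in U-2OS (log2, horizontal axis) for each kept MCM probe set, with 1 point per transfection. The 4 MCM4 probe sets and 2 of MCM10 lie right of 0 at every transfection, and MCM8 and MCM3 lie left of it.

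Genes that act with the MCM ring were set beside it. Those of origin licensing, which load the ring, had 14 kept probe sets of 10 genes. Their median difference between CDK11 siRNA and nonspecific siRNA came to -0.14 in KHOS, with 0.06 in U-2OS. By limma none of them was called, and 1 had an unadjusted p under 0.05. ORC1 and ORC2, subunits of the origin recognition complex, had the largest mean differences. ORC1 differed by -0.73 in KHOS and 0.02 in U-2OS. ORC2 differed by -1.28 and -0.95 on 235423_at, but by -0.05 and -0.00 on its other probe set, 204853_at. The genes that turn the loaded ring into an active helicase had 19 kept probe sets, with medians of -0.50 (KHOS) and 0.02 (U-2OS). Of these 18 were lower in KHOS, and 9 in U-2OS, against 48.1% and 47.3% of all kept probe sets. CDC7, the kinase of the ring, was beyond 3 SD on the lower side in both lines. It read 7.04 with CDK11 siRNA, 9.12 with nonspecific siRNA and 9.62 untransfected in KHOS, and 6.93, 8.19 and 8.42 in U-2OS. MCM3 and CDC7 thus both had their lowest levels on the CDK11 siRNA array of each line. This was no mark of these genes, as the brightest probe sets of MCM2, MCM4, MCM5, MCM6, MCM7 and MCM10 did the same. MCM8 did not in U-2OS. How many of all kept probe sets had their lowest level on that array in both lines was not counted. In this list 7 probe sets had an unadjusted p under 0.05, and limma called none.

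Genes of the fork itself, polymerases, clamp and primase among them, had 28 kept probe sets. Their median was -0.21 for KHOS, where 24 were lower, and 0.05 for U-2OS, where 12 were. Of all kept probe sets, 48.1% were lower in KHOS and 47.3% in U-2OS. RFC4, a subunit of the clamp loader, differed by -1.71 in KHOS and -0.39 in U-2OS, and PRIM1, the catalytic subunit of primase, by -1.0 and -0.17. MCM9, the partner of MCM8, differed by -0.22 in KHOS and -1.09 in U-2OS. The U-2OS value of MCM9 lay just beyond 3 SD, where the bound was -1.07, but all its U-2OS levels, from 4.13 to 5.60, were below the signal limit. E2F factors and cyclin E act at entry into S phase, E2F7 and E2F8 as repressors of the E2F programme. Their 8 kept probe sets had medians of -0.40 (KHOS) and 0.03 (U-2OS). There were 5 lower in KHOS and 4 in U-2OS, near the shares of 48.1% and 47.3% over all kept probe sets. CCNE1 differed by -1.45 and -0.99 and E2F1 by -1.0 and -0.51, and both were lower in both lines. The repressors did not move alike, with E2F7 at 0.15 in KHOS and 0.31 in U-2OS and E2F8 at -1.07 and 0.07. E2F3 was at 0.15 and 0.33 on 203692_s_at and at 0.24 and -0.09 on 203693_s_at. CCNE2 was at -0.38 and 0.71 on 205034_at and at -0.41 and -0.01 on 211814_s_at.

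General proliferation markers had 23 kept probe sets, with medians of -0.35 (KHOS) and 0.10 (U-2OS). There were 21 lower in KHOS, 6 lower in U-2OS, and all 23 had the lower difference in KHOS. The shares over all kept probe sets were 48.1%, 47.3% and 51.5% in that order. On 212023_s_at MKI67, the gene of the Ki-67 antigen, differed by -1.48 in KHOS and -0.35 in U-2OS, and BUB1, a mitotic checkpoint kinase, by -0.32 and 1.96, each on 1 of several kept probe sets. The other 3 probe sets of MKI67 gave -0.76, -0.40 and -0.19 in KHOS, with -0.06, -0.15 and 0.11 in U-2OS. For BUB1, 215509_s_at in U-2OS read 6.74 with CDK11 siRNA, 4.78 with nonspecific siRNA and 6.57 untransfected, so that only the nonspecific siRNA array was low, and the brighter 209642_at gave -0.08 in KHOS and 0.10 in U-2OS. The median of the MCM members without MCM3, -0.44 in KHOS and -0.02 in U-2OS, moved with that of the proliferation markers, and the part of cell cycling in it was not tested. Housekeeping genes had medians of -0.05 (KHOS) and 0.06 (U-2OS) over 27 probe sets. Of these, 16 were lower in KHOS and 4 in U-2OS, and 19 had the lower difference in KHOS. Their largest mean differences were at TBP, by -0.51 and -0.07, and HPRT1, by -0.46 and -0.09. By limma none of the probe sets in these lists was called between CDK11 siRNA and nonspecific siRNA, nor was any of all 16397.

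**Figure D5:**
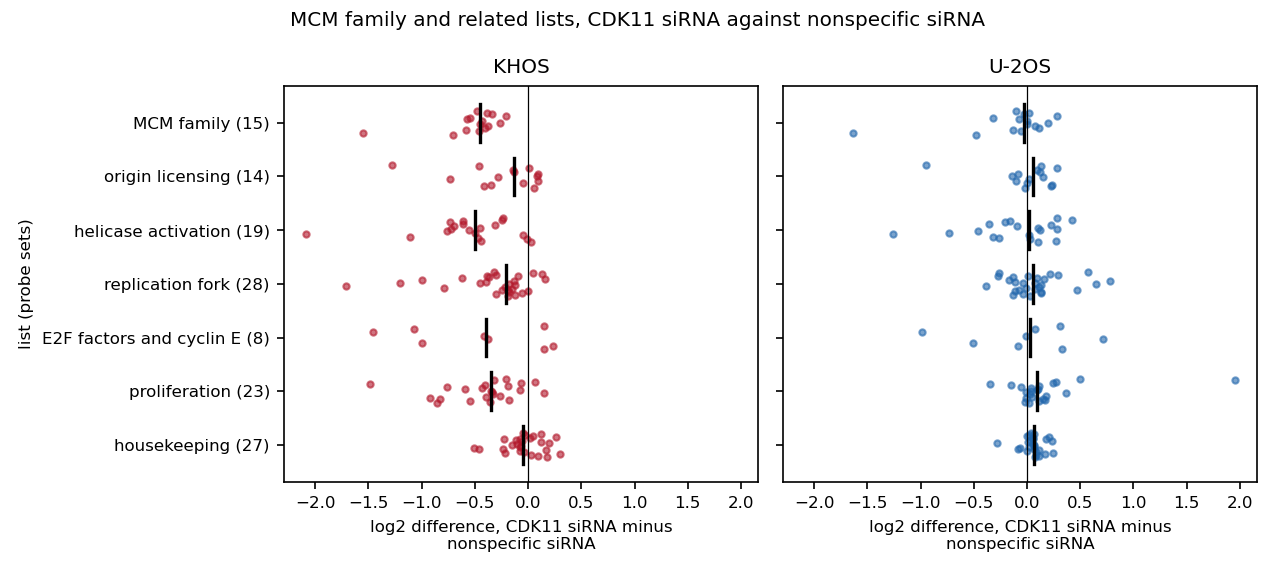
Log2 difference of CDK11 siRNA minus nonspecific siRNA in KHOS and in U-2OS for the MCM members and for the lists of origin licensing, helicase activation, replication fork, E2F factors and cyclin E, proliferation and housekeeping; each dot is 1 kept probe set and the black bar the list's median. In KHOS the medians of these 7 sets lie at or below -0.05, while U-2OS has them between -0.03 and 0.10, and MCM3 lies apart from the other MCM dots in both.

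The pattern of MCM3 was compared with that of every other kept probe set with 1 gene symbol, 14440 in all, by the Euclidean distance over 4 log2 differences, which were CDK11 siRNA minus nonspecific siRNA and nonspecific siRNA minus untransfected in each line. The nearest were MAP2K4 with a distance of 0.411, CTSZ with 0.425, CDC27 with 0.472, TMEM19 with 0.497 and URI1 with 0.524. No member was near. MCM2 was the closest at rank 333, with a distance of 1.46, and MCM8 the farthest at rank 7407, with a distance of 2.38. The 5 genes were picked for their nearness, and the distance uses the differences by which MCM3 already stood apart. This is a description and not a test.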

How the data were processed

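The deposited values were log2 signals that the authors made with gcrma. It corrects the background by probe sequence, sets the arrays to 1 distribution and sums up the probes of a set, and the second step takes out a change common to all genes. There were 41097 probe sets with 1 gene symbol, and 1801 with several and 11777 with none were not named; names were updated through RefSeq for GRCh38.p14. Arrays have no depth, and precision is limited by their number. Differences were scaled by the mean and SD of all kept probe sets, after the study's methods, with 3 SD as the threshold and without its present and absent calls. Limma 3.58.1 in R 4.3.3 was fitted across all kept probe sets, two-sided, with Benjamini-Hochberg adjustment at 0.05, after the code was tested on simulated data. No test was possible within a line. With the line as a block, the p-values for transfections measure how far the lines disagree in their differences. Those for KHOS against U-2OS take the 3 transfections of a line as its replicates, and measure how steady the gap is over them. Alternatives were the control, filter, centring, prior, block, threshold, 1 probe set per gene and leaving out arrays. Every member probe set was named. Of each other list, the genes beyond 3 SD in both lines were named, or else the 2 with the largest mean difference. The other kept genes of the E2F and cyclin E list were named beside these. The promoter table gave no window for MCM4 and MCM5. The members and lists were chosen with earlier results of these data known. Scripts ran in Python 3.11.15 with pandas 2.3.3 and scipy 1.17.1.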

Additional observations from a re-analysis of the deposited data

Results flagged for a closer look

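In 5 member probe sets the difference between CDK11 siRNA and nonspecific siRNA had opposite signs, lower in KHOS and higher in U-2OS. The gap, KHOS minus U-2OS, was -0.51 for 222037_at and -0.45 for 212142_at of MCM4, -0.46 for 201755_at of MCM5, -0.48 for MCM8 and -0.40 for 223570_at of MCM10. With 1 array per condition these gaps were not tested, and they were close to the median gap of -0.43 over all members. Against untransfected cells only MCM8 and 222962_s_at of MCM10 had opposite signs, which were again lower in KHOS and higher in U-2OS.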

How the results depend on the processing

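With untransfected cells as the control the member medians for CDK11 siRNA were -0.60 in KHOS and -0.41 in U-2OS, and with arrays centred on housekeeping genes the KHOS median was -0.60. That centring moved the median of all kept probe sets between CDK11 and nonspecific siRNA to -0.10, and against untransfected cells to -0.20. Between CDK11 and nonspecific siRNA limma called 1 member with a level-dependent prior, and MCM8 turned to -0.076 with housekeeping centring. In this comparison MCM3 lay between -1.70 and -1.59. Its limma adjusted p was 0.00622 to 1, and it was 1 without the line as a block. In this balanced design only centring can move the estimate, so its narrow range is not a test. With untransfected cells as the control it was -1.88. Against untransfected cells limma called 2 members with the level-dependent prior and 1 with housekeeping centring, where 60 probe sets were called in all. With 1 probe set per gene, 2 of 8 members were called between KHOS and U-2OS, against 71.7% of all genes. In that comparison small values changed sign. MCM6 was 0.038 without the CDK11 siRNA arrays and 0.13 without the untransfected arrays, and MCM7 was 0.062 and 0.11 without the same arrays. MCM2 was -0.013 with median centring. The brightest MCM10 probe set was -0.10 with median centring, -0.025 with housekeeping centring and -0.0034 without the nonspecific siRNA arrays. The labels give no replicate numbers, and the line served as the block. Pairing the arrays by line without the third transfection called 0 members in each comparison of transfections. With 1 array per condition, differences within a line carry no error, and signals near background bound nothing. The member probe sets below the signal limit on every array were left out of the main counts. The dim 201755_at of MCM5 stayed in them, although it passed the limit on its untransfected U-2OS array only.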
